A study of Mus musculus with 8 samples.

Results

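The 10 genes followed here in the mouse cochlea are reported targets of the microRNAs miR-96 and miR-183: Aqp5, Celsr2, Myrip, Odf2, Ryk, Foxo1, Foxo3, Adcy6, Btrc and Slc1a1. They were chosen by name, as genes that earlier work reported as targets; the rule has no threshold on the values, but the list was made with earlier results of these data known. All 10 were measured, of 22180 genes that the platform annotation links to an array feature of exactly 1 symbol. Together they had 11 of the 23521 such features, because Foxo1 had 2, and each gene was represented by its brightest feature, judged by the mean of the 8 arrays.

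The study compared 4 mice labelled miR-183/96 KO, in which the microRNA genes Mir183 and Mir96 were targeted, with 4 mice labelled control, which the series text calls wild type. All were at postnatal day 16. Each array held the pooled RNA of both whole encapsulated cochleae of 1 animal, so sensory cells, neurons, bone, marrow and attached muscle were read together, and fewer cells of a type cannot be told apart from less RNA per cell. The sources used here do not give strain, sex or the extent of the deletion.

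A microRNA guides the Argonaute protein to messenger RNAs that pair with its seed, a short stretch near its 5′ end, and the paired messages are translated less and often degraded. Loss of a microRNA can therefore raise its direct targets, usually by modest amounts and in the cells that contain it, while other genes change indirectly. Mir183, Mir96 and Mir182 form a cluster that is abundant in hair cells and in sensory neurons, and seed mutations of Mir96 cause progressive hearing loss in mice and humans.

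The mature sequences are shown because pairing with the seed is a main part of how each microRNA finds its targets. They come from RefSeq (GRCm38.p6), and capitals mark the seed, bases 2 to 8 from the 5′ end.
miR-96-5p: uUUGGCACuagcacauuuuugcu
miR-183-5p: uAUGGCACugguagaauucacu
miR-182-5p: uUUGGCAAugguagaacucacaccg
All are encoded on the minus strand of chromosome 6 of that build, miR-182-5p at chr6:30165962-30165986, miR-96-5p at chr6:30169506-30169528 and miR-183-5p at chr6:30169711-30169732. The seeds of miR-96-5p and miR-182-5p were the same at 6 of 7 positions and shared the run UUGGCA. Those of miR-96-5p and miR-183-5p were also the same at 6 of 7 positions, with the run UGGCAC in common, and those of miR-183-5p and miR-182-5p at 5 of 7. Mir182 is not named as targeted in the labels. Target sites in the 10 genes were not analysed here.

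The targeted cluster was read first. Values are log2 RMA expression values, and every difference below is knockout minus control on that scale. The Mir96 feature read 4.01, 4.26, 4.26 and 4.31 in knockout replicates 1 to 4 and 5.71, 5.26, 6.23 and 5.57 in control replicates 1 to 4. The highest knockout value lay below the lowest control value, and the difference was -1.48 (SE 0.17; limma adjusted p = 0.00932). The Mir183 feature differed by -0.33 (SE 0.18; adjusted p = 0.398) and the Mir182 feature by 0.35 (SE 0.17; adjusted p = 0.364), both with overlapping groups. These features lay at level percentiles 3.51 and 12.6 of all tested features, so they were dim.

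None of the 10 target genes passed the test. In limma, with Benjamini-Hochberg adjustment over all 23521 features and a threshold of 0.05, 0 of 10 passed, and 3 features of the whole array did (0.0128%), none of them a member. At an unadjusted p under 0.05 there were 3 of 10 members, against 14.3% of all features. Of these, Slc1a1 read higher in knockout cochlea, where 7.04% of all features were counted, and Adcy6 and Btrc read lower, where 7.25% were. The smallest adjusted p of a member was 0.301. Differences of the 10 genes ran from -0.38 to 0.44 with a median of -0.04, beside a median of 0.01 over all features. Positive differences were found for 4 of 10 members and for 52.4% of all features. The 10 genes thus had no common sign.

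**Figure D1:**
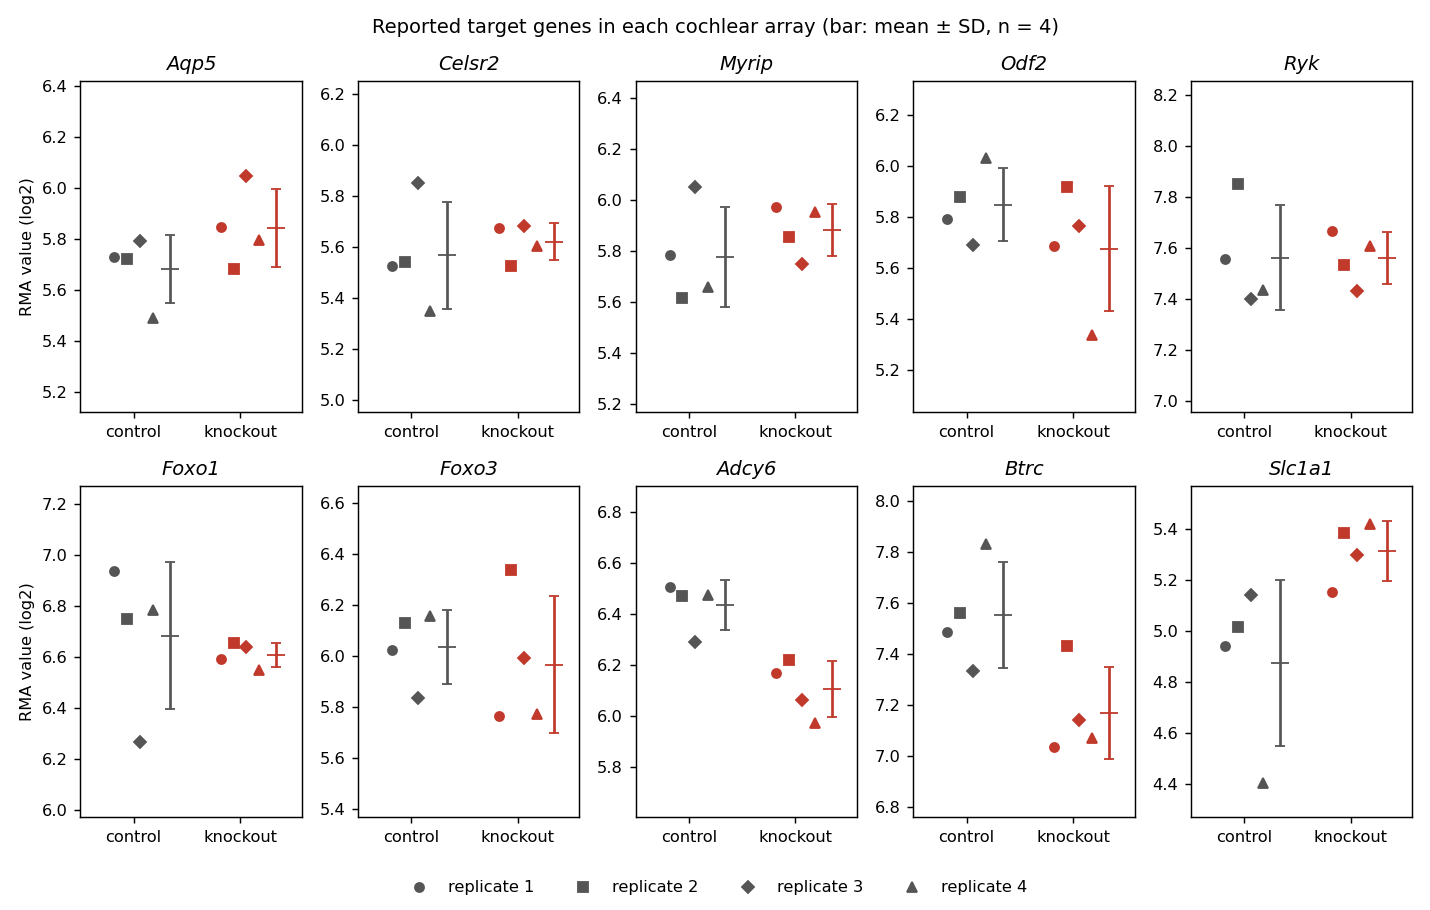
Log2 RMA value of each of the 10 genes in each array, with control on the left and knockout on the right of each panel. Marker shapes give the replicate number, the bar to the right of the points is the mean ± SD (n = 4), and every panel spans the same range on the log2 axis. Only Adcy6 and Slc1a1 show knockout points fully apart from control points.

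Aqp5, Celsr2, Myrip, Odf2 and Ryk were reported as miR-96 targets in work on a Mir96 seed mutant mouse. Aqp5 encodes a water channel of the plasma membrane, present in the outer sulcus region of the cochlea. Its values were 5.85, 5.68, 6.05 and 5.79 in knockout and 5.73, 5.72, 5.79 and 5.49 in control replicates 1 to 4. In knockout, 3 of the 4 animals lay above the highest control, narrowly in 1 of them, and knockout replicate 2 lay among the controls. The difference was 0.16 (SE 0.12; limma adjusted p = 0.518), with a 95% interval from -0.09 to 0.41. As a ratio of knockout over control that interval reached 1.33-fold at its upper end.

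Celsr2 encodes an atypical cadherin of the planar cell polarity system, which orients cells within an epithelium. It read 5.67, 5.52, 5.68 and 5.60 in knockout and 5.52, 5.54, 5.85 and 5.35 in control replicates 1 to 4. Every knockout value lay inside the control range, which was set by control replicates 3 and 4. The means were 5.62 ± 0.07 and 5.57 ± 0.21 (SD, n = 4), and the interval of the difference ran from -0.21 to 0.32, at most 1.25-fold higher.

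Myrip encodes a linker between the vesicle GTPase Rab27a and the motors myosin VIIa and myosin Va. Its values were 5.97, 5.85, 5.75 and 5.95 in knockout and 5.78, 5.61, 6.05 and 5.66 in control animals. Control replicate 3 was the highest of the 8 arrays, and every knockout value lay inside the control range. The difference was 0.10 (SE 0.12; adjusted p = 0.686), with an upper bound of 1.29-fold.

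Odf2 encodes a protein of sperm outer dense fibres and of the appendages of the mother centriole. It read 5.69, 5.92, 5.76 and 5.34 in knockout and 5.79, 5.88, 5.69 and 6.03 in control animals. Knockout replicate 4 was low, and the other knockout values lay near the controls. The difference was -0.17 (SE 0.14; adjusted p = 0.542), and the interval ended at 1.09-fold higher on one side and 1.38-fold lower on the other.

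Ryk encodes a Wnt receptor related to tyrosine kinases. Its values were 7.67, 7.54, 7.43 and 7.61 in knockout and 7.56, 7.85, 7.40 and 7.44 in control animals. The means were 7.56 in both groups (SD 0.10 and 0.21, n = 4), and every knockout value lay inside the control range. The interval ran from 1.19-fold lower to 1.19-fold higher. After cyclic loess, a normalization that removes level-dependent differences between arrays, Ryk read 0.21 higher (unadjusted p = 0.0788, adjusted p = 0.569).

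Foxo1 and Foxo3 encode transcription factors that insulin and growth factor signalling holds out of the nucleus, and both were reported as targets of cluster members in other tissues. The Foxo1 feature that stood for the gene read 6.59, 6.65, 6.64 and 6.55 in knockout and 6.94, 6.75, 6.27 and 6.78 in control animals. The knockout values were tightly grouped (SD 0.05) inside a wide control range (SD 0.29), in which control replicate 3 was lowest. The difference was -0.08 (SE 0.13; adjusted p = 0.798), and it turned to 0.07 after cyclic loess. The other Foxo1 feature read 0.13 (SE 0.11; adjusted p = 0.565), so the 2 features differed in sign.

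Foxo3 read 5.76, 6.34, 5.99 and 5.77 in knockout and 6.02, 6.13, 5.84 and 6.16 in control animals. Knockout replicate 2 was the highest of the 8 arrays, and knockout replicates 1 and 4 were the lowest. The difference of -0.07 (SE 0.14; adjusted p = 0.823) was smaller than the SD of either group, 0.27 in knockout and 0.15 in control.

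Adcy6 encodes an adenylyl cyclase, an enzyme that makes the second messenger cyclic AMP and is inhibited by calcium. Its values were 6.17, 6.22, 6.07 and 5.97 in knockout and 6.51, 6.47, 6.29 and 6.48 in control replicates 1 to 4. All 4 knockout values lay below all 4 controls, though knockout replicate 2 and control replicate 3 were close. The difference was -0.33 (SE 0.11), 1.26-fold lower, at an unadjusted p of 0.00794 and an adjusted p of 0.301. The interval of the ratio of knockout over control ran from 0.679 to 0.932. The difference read -0.23 after cyclic loess (unadjusted p = 0.0219, adjusted p = 0.455).

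Btrc encodes an F-box protein of an SCF ubiquitin ligase, the subunit that recognises phosphorylated beta-catenin and the NF-kappa-B inhibitor for destruction. It read 7.03, 7.43, 7.14 and 7.07 in knockout and 7.48, 7.56, 7.33 and 7.83 in control animals. In knockout, 3 values lay below every control, and knockout replicate 2 lay above control replicate 3. The difference was -0.38 (SE 0.13), 1.31-fold lower, at an unadjusted p of 0.0100 and an adjusted p of 0.301. After cyclic loess it was -0.18 (unadjusted p = 0.0831, adjusted p = 0.574).

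Slc1a1 encodes a transporter that takes glutamate into neurons and epithelial cells. Its values were 5.15, 5.38, 5.30 and 5.42 in knockout and 4.94, 5.01, 5.14 and 4.40 in control animals. All 4 knockout values lay above all 4 controls, by little between knockout replicate 1 and control replicate 3, and control replicate 4 was far below the rest. The difference was 0.44 (SE 0.15), 1.36-fold higher, at an unadjusted p of 0.0126 and an adjusted p of 0.301, with an interval from 1.08-fold to 1.70-fold. Without control replicate 4 it was 0.28 (adjusted p = 0.612), and after cyclic loess 0.36 (unadjusted p = 0.0238, adjusted p = 0.456). It was the member with the lowest mean level, at percentile 37.9 of all features. The other 9 members lay above the median level, up to percentile 95.2 for Ryk.

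The groups did not overlap at 2 of 10 members, and at 5.96% of all features. Slc1a1 had its knockout values above, as did 3.3% of all features, and Adcy6 below, as did 2.65%. The upper end of the 95% interval was under 1.5-fold for 9 of 10 members, and 1.70-fold for Slc1a1. The share of all features with such a bound is not given here, so the count is no trait of the members. These bounds hold for RNA of the whole cochlea and set no limit for a single cell type. Standard errors of the 10 genes ran from 0.11 to 0.15. The moderated spread of the members lay between percentiles 5.41 (Adcy6) and 74.6 (Slc1a1) of all features.

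**Figure D2:**
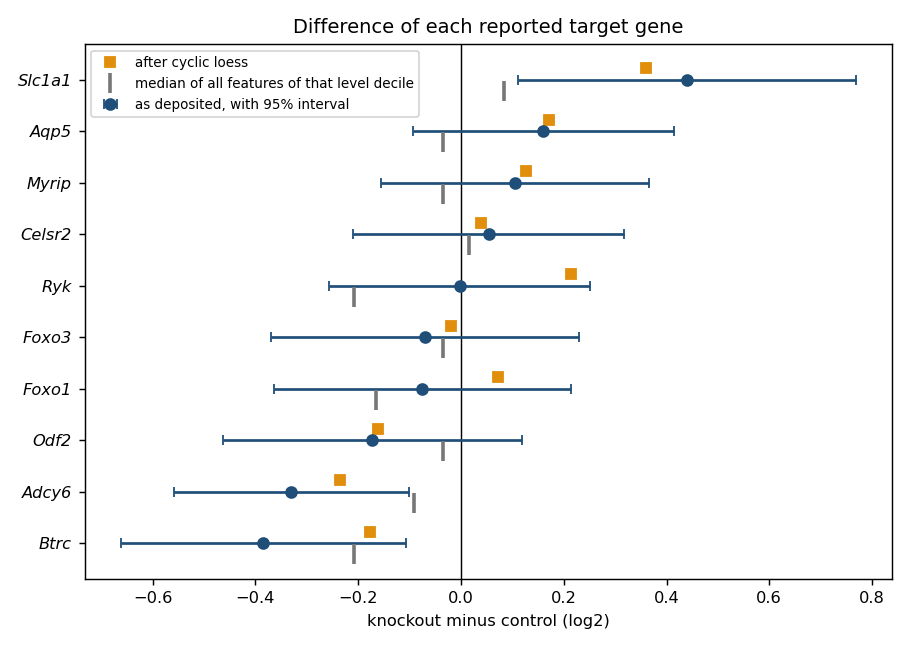
Knockout minus control on the log2 axis for each gene, ordered from Btrc to Slc1a1. Circles and bars are the deposited values with 95% intervals, squares are the values after cyclic loess, and grey ticks are the median difference of all features in the level decile of the gene. The intervals of Adcy6, Btrc and Slc1a1 lie off 0, and Ryk and Foxo1 change sign after cyclic loess.

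Several array-wide measures moved with genotype beside these values. Their part in the results was not tested beyond fits with signal range or muscle level as a covariate. Signal range, meaning how widely the log2 values of an array spread (their SD), averaged 1.40 ± 0.03 over the knockout and 1.49 ± 0.06 over the control arrays (SD, n = 4; two-sided exact permutation p = 0.0571, where the smallest possible is 0.0286). Along with it, dim features read higher and bright features lower in knockout arrays. The median difference was 0.13 in the lowest decile of features by mean level and -0.21 in the highest. In the deciles of the members it was 0.08 for Slc1a1, -0.09 for Adcy6, -0.21 for Btrc and Ryk and -0.16 for Foxo1. Btrc and Ryk thus sat on either side of a shared median of -0.21, at -0.38 and near 0. With signal range as a covariate Adcy6 read -0.17, Btrc -0.05 and Slc1a1 0.12 (adjusted p = 0.941, 0.994 and 0.989). Signal range moved with genotype, so this fit separates them poorly. Its standard errors of the members ran from 0.13 to 0.19, against 0.11 to 0.15 without the covariate. At an unadjusted p under 0.05 there were then 0 of 10 members (5.95% of all features), and after cyclic loess 2 of 10, Adcy6 and Slc1a1 (9.54%).

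**Figure D3:**
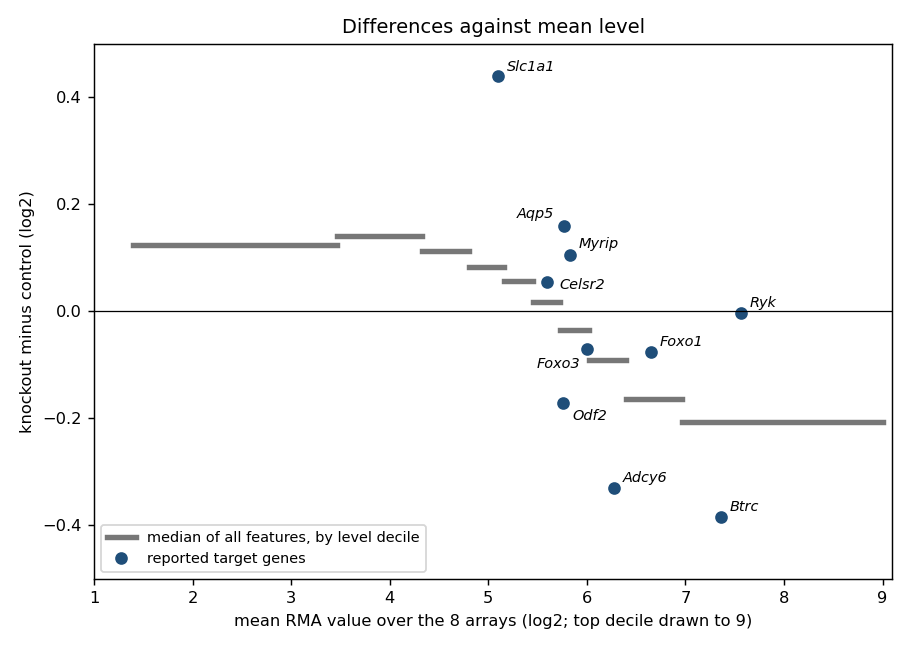
Knockout minus control against mean RMA value over the 8 arrays, both log2. Circles are the 10 genes and grey segments the median difference of all features in each level decile, which goes from 0.13 to -0.21. Slc1a1 lies above and Adcy6 and Btrc below the median of their own decile. Ryk and Aqp5, each 0.20 above the median of their decile, lie farther from it than Btrc does (-0.18).

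Control replicate 3 stood apart at the members. Among the controls it was the highest for Aqp5, Celsr2, Myrip and Slc1a1 and the lowest for Odf2, Ryk, Foxo1, Foxo3, Adcy6 and Btrc. In 10 of 10 members it was thus the control farthest in the direction of the knockout mean, as it was at 48.4% of all features. Its signal range of 1.41 lay inside the knockout range of 1.37 to 1.44. Knockout replicate 2 was the knockout array farthest toward the control mean in 7 of 10 members and at 41.9% of features. Without control replicate 3 the differences were -0.38 for Adcy6, -0.46 for Btrc and 0.53 for Slc1a1 (adjusted p = 0.102, 0.102 and 0.107). It was picked out as the control farthest toward the knockout mean, so leaving it out had to enlarge these differences. The larger values are thus not separate evidence. There were still 0 of 10 members past the threshold, while 21 features of the array passed.

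Marker genes served to check the tissue. Hair cell (11 measured), supporting cell (10) and stria vascularis (8) markers had median level percentiles of 55.7, 55.0 and 70.3, and no background level was used here, so dim markers could not be called absent. The hair cell level ran from 5.40 to 5.59 in knockout and from 5.41 to 5.57 in control animals. The neuron markers (10 measured, 9 with negative differences) ran from 5.67 to 6.0 in knockout and from 6.10 to 6.53 in control animals, without overlap (exact permutation p = 0.0286, the smallest possible). Of these, 1 passed over all features, the presynaptic gene Snap25 (-1.09, SE 0.15, limma adjusted p = 0.0389), and Calb1 read -1.08 (adjusted p = 0.226). Differences of the neuron markers ran from -1.09 to 0.19, and some lay near 0, as at -0.03 and -0.01. The list was chosen with earlier results of these data known and holds Snap25, so its permutation p is not separate evidence. Skeletal muscle markers (15 measured, 15 negative) ran from 5.64 to 6.81 and from 6.59 to 8.52, and B cell markers (8 measured, 7 negative) from 7.17 to 7.44 and from 7.42 to 7.75. Most markers of the other lists read lower too, though the list levels of the groups overlapped. Counts were bone 7 of 7 (level difference -0.24), erythroid 5 of 5 (-0.28), supporting cell 8 of 10 (-0.20) and stria 6 of 8 (-0.19). Hair cell markers were lower in 6 of 11 (-0.03). Several lists were bright, with median level percentiles of 98.9 (bone), 97.1 (erythroid), 95.5 (B cell) and 86.9 (muscle). Of all features, 12.3% in the highest level decile and 17.6% in decile 9 read higher in knockout. The part of level in the marker differences was not tested. The genes of smallest p in these lists, none of which passed, were Myo6 (-0.53) and Espn (0.22) for hair cells, Fbxo2 (-0.42) and Slc1a3 (-0.29) for supporting cells, Slc12a2 (-0.41) and Lrp2 (-0.30) for stria, and Col1a1 (-0.42) and Col1a2 (-0.33) for bone. They were Actn3 (-0.90) and Pvalb (-0.96) for muscle, Cd79b (-0.44) and Pax5 (-0.52) for B cells, and Slc4a1 (-0.41) and Rhag (-0.45) for erythroid cells. After cyclic loess Col1a1 read -0.40, Actn3 -0.83, Cd79b -0.23 and Slc4a1 -0.23. Some other markers turned positive, as did Bglap of bone (0.17) and Epor of erythroid cells (0.09). The part of these cell types in the values of Adcy6, Btrc and Slc1a1 was not tested beyond the muscle level as a covariate, with which these read -0.34, -0.36 and 0.58.

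Lists of 124 other genes from the pathways of the members were read in the same fit. Of 115 measured, 0 passed in limma. At an unadjusted p under 0.05 there were 22 (19.1%, against 14.3% of all features), 5 higher and 17 lower. Their median was -0.08, and -0.02 after cyclic loess.

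Other genes reported as targets of the cluster came closest to the members in kind. Of 20 measured, 0 passed and 3 had an unadjusted p under 0.05, all lower; 2 differences were positive and 18 negative, and the median was -0.14, or -0.02 after cyclic loess, with a median level percentile of 83.4. Lrp6, a Wnt co-receptor, ran from 7.05 to 7.37 in knockout and from 7.45 to 7.56 in control animals, without overlap (-0.30, SE 0.10, adjusted p = 0.301, and -0.10 after cyclic loess). Kif2a, a microtubule-depolymerising kinesin, ran from 6.37 to 6.68 and from 6.55 to 6.98 (-0.34, SE 0.12, adjusted p = 0.305, and -0.19 after cyclic loess). Of the genes that earlier work reported as lower in the Mir96 seed mutant, 4 were measured, 0 passed and 1 had an unadjusted p under 0.05. Their differences were 2 positive and 2 negative, with a median of -0.06, or -0.07 after cyclic loess. The lowest p among them was that of Ptprq, a phosphatase of the hair bundle (-0.45, SE 0.16, adjusted p = 0.305), followed by Ocm, the calcium buffer of outer hair cells (-0.14, SE 0.18, adjusted p = 0.724, and -0.04 after cyclic loess).

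Around Foxo1 and Foxo3, 23 family members and genes known to be regulated by FOXO factors had a median of -0.11, or -0.04 after cyclic loess, at a median level percentile of 77.8, with 6 positive and 17 negative differences; 0 were called and 6 had an unadjusted p under 0.05, 1 higher and 5 lower. Sod2, the mitochondrial superoxide dismutase, ran from 7.09 to 7.27 in knockout and from 7.25 to 7.98 in control animals (-0.40, SE 0.14, adjusted p = 0.301, and -0.19 after cyclic loess). Trim63, a muscle ubiquitin ligase, read 0.34 (SE 0.13, adjusted p = 0.305), in the direction opposite to the muscle markers above.

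Around Celsr2 and Ryk, 18 planar polarity and Wnt receptor genes had a median of -0.05, or -0.01 after cyclic loess, with 7 positive and 11 negative differences; 0 were called and 3 had an unadjusted p under 0.05, all lower. Those with the smallest p were the giant cadherin Fat4 (-0.34, SE 0.13) and the core polarity gene Vangl2 (-0.32, SE 0.13), at adjusted p of 0.305 and 0.320. Around Odf2, 11 outer dense fibre and centriole appendage genes had a median of -0.17, or -0.10 after cyclic loess, with 2 positive and 9 negative differences; 0 were called and 2 had an unadjusted p under 0.05, both lower. In Cep89, a distal appendage gene, values from 5.40 to 5.64 in knockout lay below those from 5.67 to 6.04 in control animals (-0.31, SE 0.12, adjusted p = 0.305). Sclt1, another, read -0.43 (SE 0.18, adjusted p = 0.327).

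Around Myrip, 10 partner and Rab27 effector genes had a median of 0.04, or 0.06 after cyclic loess, and 0 were called against 2 at an unadjusted p under 0.05. Myo5a, the myosin Va motor that Myrip can bind, ran from 5.50 to 5.89 in knockout and from 6.0 to 6.30 in control animals, without overlap (-0.39, SE 0.12, adjusted p = 0.301, and -0.35 after cyclic loess). The Rab27 effector Sytl1 read 0.27 (SE 0.12, adjusted p = 0.341).

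Relatives of Adcy6, Slc1a1 and Aqp5 each included members at either side of 0. Among 8 other adenylyl cyclases 0 were called, 1 had an unadjusted p under 0.05 and the median was -0.06, or -0.12 after cyclic loess. Adcy5, the other calcium-inhibited cyclase of the family, ran from 5.59 to 6.03 in knockout and from 5.32 to 5.58 in control animals. These groups were barely apart, with a lowest knockout value of 5.589 and a highest control value of 5.585. The Adcy5 difference was opposite in sign to that of Adcy6 (0.34, SE 0.12, adjusted p = 0.305, and 0.32 after cyclic loess). Adcy9 read -0.19 (SE 0.14, adjusted p = 0.511). The difference between Adcy5 and Adcy6 was not tested.

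Among the 6 other Slc1 transporters 0 were called, 2 had an unadjusted p under 0.05 and the median was 0.05, or 0.005 after cyclic loess. Slc1a3, the glial glutamate transporter of supporting cells, ran from 4.87 to 5.04 in knockout and from 5.09 to 5.35 in control animals (-0.29, SE 0.11, adjusted p = 0.305), and the amino acid exchanger Slc1a5 read -0.42 (SE 0.16, adjusted p = 0.305, and -0.20 after cyclic loess). Both had the opposite sign to Slc1a1, while 4 of the 6 transporters were positive like Slc1a1, and the difference was not tested. Among 11 other aquaporins the median was 0.07, or 0.03 after cyclic loess, and 0 were called against 2 at an unadjusted p under 0.05. Aqp8 ran from 4.53 to 4.82 in knockout and from 4.02 to 4.48 in control animals (0.38, SE 0.13, adjusted p = 0.301), and Aqp7, which also carries glycerol, read 0.25 (SE 0.11, adjusted p = 0.342). Around Btrc, 4 partner and substrate genes of its ligase were all negative with a median of -0.19, which was -0.01 after cyclic loess. They included the scaffold gene Cul1 (-0.32, SE 0.16, adjusted p = 0.364, and -0.13 after cyclic loess) and the substrate gene Ctnnb1, beta-catenin (-0.23, SE 0.12, adjusted p = 0.386, and -0.02 after cyclic loess), and 0 were called at either the adjusted or the unadjusted threshold.

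**Figure D4:**
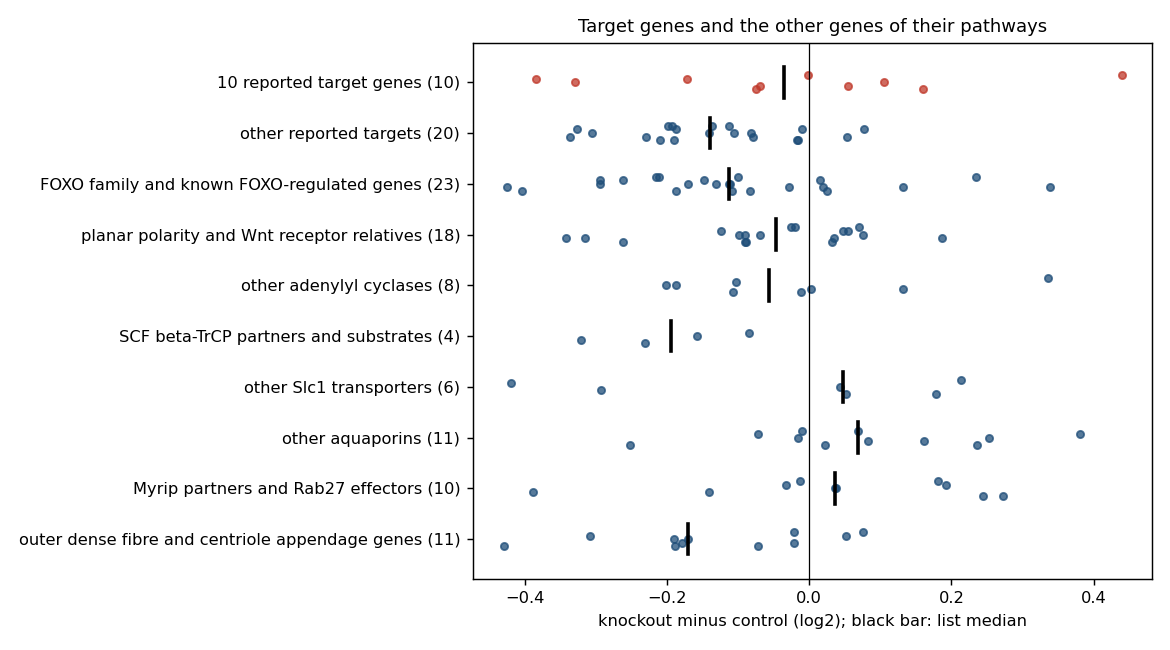
Knockout minus control on the log2 axis for the 10 genes (top row) and for 9 lists of other genes of their pathways, with 1 point a gene, the number measured in brackets and a black bar at each list median. Points lie between -0.43 and 0.44, medians run from -0.19 for the ligase partners of Btrc to 0.07 for aquaporins, and no point passed the adjusted threshold.

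The genes whose values over the 8 arrays were most like those of Slc1a1 and Btrc, the 2 members with the largest differences, were read from 15251 features of mean level at least 5. For Slc1a1 they were Gm2022 (Pearson r = 0.973 over 8 arrays), Dmkn (0.972) and Gprc6a (0.969). For Btrc they were Trrap (0.985), Map2k5 (0.983) and Strbp (0.981). Genotype was not removed, so genes with a like difference are favoured. The differences were 0.92, 0.25 and 0.41 for Gm2022, Dmkn and Gprc6a. They were -0.28, -0.29 and -0.36 for Trrap, Map2k5 and Strbp. Arrays also share their signal range in such a comparison, so the correlations are a description of the 8 arrays.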

How the data were processed

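Total RNA, microRNA included, from the cochleae of 8 mice was hybridised to Affymetrix Mouse Gene 2.0 ST arrays, 1 array an animal. The deposited values are log2 expression values. Per the labels, the authors ran a gene-level RMA summary in Expression Console software; that the scale is log2 follows from the range of values (0.90 to 13.5). The sources used here do not give the software version, annotation release or array build. Background levels, scan dates and batches were not used. The number of arrays limits the precision.

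Of 41345 features, 23521 had exactly 1 symbol in the platform annotation, 1814 several and 16010 none. The first were fitted in limma 3.58.1 under R 4.3.3 (lmFit, eBayes with intensity trend, genotype as the only term), with Benjamini-Hochberg adjustment over all of them and a threshold of 0.05. The fitting steps were tested on simulated data with independent noise for each feature and no signal range difference between the groups. Array-wide measures were compared by two-sided exact permutation over 70 assignments. All 10 member symbols matched the RefSeq gene table by identifier. Symbols that did not match (9 of 124 in the pathway lists) were not analysed here.

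Members and lists were chosen with earlier results of these data known. Named were all members and their features, the 3 cluster genes, every list gene past the threshold and the 2 with the smallest p in each list, and the 3 genes most like each of the 2 members of largest absolute difference. The alternatives tried included a block for the replicate number, other variance settings, filters, normalizations, array weights, signal range and muscle level as covariates, and each array left out in turn.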

Additional observations from a re-analysis of the deposited data

Results flagged for a closer look

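Within a group of 4, 3 values lay far from the rest of their group, among 44 groups looked at; chance marks about 1 in 20. The Adcy6 value of control replicate 3 was 6.29, the next control being 6.47. The Mir96 value of knockout replicate 1 was 4.01, the next being 4.26. The Mir183 value of knockout replicate 3 was 1.82, the next being 2.38, at a level too dim to read further. The cause was not tested for any of these values.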

How the results depend on the processing

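In limma 0 of 10 members passed the adjusted threshold under each of 12 alternatives and with each of the 8 arrays left out (Slc1a1 was not tested among the upper features by mean). At an unadjusted p under 0.05 there were 3 of 10 on the deposited values and in most alternatives, but 2 after cyclic loess, after repeated quantile normalization and among the upper features by mean, and 0 with signal range as a covariate. The count of all features called was 3. It was 1 with every feature of the value table, with signal range or with muscle level as a covariate, 8 with array weights, and 1 (without control replicate 1) to 21 (without control replicate 3) with arrays left out. The 3361 features at an unadjusted p under 0.05 became 5501 without control replicate 3, 1902 with control replicate 4 left out, 2023 with control replicate 2 left out, 2116 when knockout replicate 4 was dropped, 1400 with signal range and 1707 with muscle level. Signal range differed by -0.064 over every feature of the table (exact permutation p = 0.0286), and by -0.12 to -0.074 with arrays left out. Adcy6, Btrc and Slc1a1 kept their sign in all 20, 20 and 19 alternatives run, and an unadjusted p under 0.05 in 19, 17 and 18. The replicate block, variance settings and changes of the feature set leave the difference itself unchanged, so the sign could not turn in those. For Adcy6 and Slc1a1, whose groups did not overlap, it could not turn with arrays left out either. The kept signs of these genes are therefore a weak check. Signs turned elsewhere: with signal range as a covariate Aqp5 read -0.022, Celsr2 -0.22, Myrip -0.13, Odf2 0.12, Ryk 0.071, Foxo1 0.21 and Foxo3 0.24; with muscle level Ryk read 0.10 and Foxo3 0.019; after repeated quantile normalization Ryk read 0.20 and Foxo1 0.071; after cyclic loess Ryk read 0.21 and Foxo1 0.072; and the other Foxo1 feature read 0.13. With arrays left out Ryk ran from -0.056 to 0.095, Foxo1 from -0.21 to 0.0088 and Celsr2 from -0.018 to 0.15. The cause was not tested. With the replicate block, 3 features and 0 members were called; same-numbered arrays correlated at -0.29 to 0.21 in their deviations from the group means, so the numbers were not taken as pairs.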
